A study of Danio rerio with 8 samples.

Results

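Vitellogenic livers, those with a high signal for the egg yolk precursor gene *vtg2*, were compared with livers in which that signal was low. The split was made from the arrays themselves. The cluster of probes that carries the symbol *vtg2* and has the highest mean signal was taken, arrays with a log2 signal over 8 for it were called vitellogenic, and the others non-vitellogenic. This placed 5 of the 8 arrays of the series in the vitellogenic group and 3 in the non-vitellogenic group. The lowest signal among the 5 was 12.74 and the highest among the 3 was 2.23.

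Each array held liver RNA of a wild-type adult zebrafish of the AB strain, and fish were handled in 2 batches. In each batch the arrays cover 2 fish that received oligo-fucoidan (OF), a low molecular weight brown seaweed extract, and 2 control fish that received no OF. The dose was 300 mg/kg by oral gavage. OF was given repeatedly over a month from an age of 5 months, and the labels give 6 months. The vitellogenic group holds batch 1 OF 1 and OF 2, batch 2 control 1 and control 2, and batch 2 OF 1. The non-vitellogenic group holds batch 1 control 1 and control 2, and batch 2 OF 2. Values are given in this order of arrays throughout. In batch 1 the split is therefore the same as OF against control, so that there they cannot be told apart. In batch 2 the non-vitellogenic group is a single fish, which received OF. The sex of the fish was not given in the sources used here. Replicates were taken as separate fish from the study's figure legends, since the sample titles give replicate numbers only. The p-values measure the spread between these fish once they were split by a gene of their own.

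In egg-laying vertebrates, yolk protein is made in the liver. Estradiol from the ovary binds the nuclear estrogen receptor in hepatocytes, the vitellogenin genes are switched on, and vitellogenin is folded, loaded with lipid and phosphate in the secretory pathway and released into the blood. Growing oocytes take it up and cleave it into yolk proteins. Several fish also make proteins of the egg envelope, the coat of zona pellucida proteins around the egg, in the liver, whereas in zebrafish these are known from the ovary.

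The signal is a log2 value per transcript cluster of the ZebGene 1.1 ST array, as normalized by the authors. Batch 1 arrays had median signals of 2.11 to 2.13 and batch 2 arrays of 2.54 to 2.63. Batch was therefore a term of the comparisons over all arrays, apart from an alternative fit that left it out. Within batch 1 the vitellogenic arrays correlated at r = 0.929 with each other across clusters and at 0.843 to 0.917 with the non-vitellogenic arrays, and the lowest values were those of batch 1 OF 1. Within batch 2 these values were 0.948 to 0.964 and 0.928 to 0.944. Every array held hepatic RNA, since *tfa* (transferrin) and *fabp10a* (the liver fatty acid binding protein) lay above a signal of 12 on all 8 arrays. These are among the brightest hepatocyte markers and do not show how pure the liver RNA was. Other hepatocyte markers and those of oocytes are described below.

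The vitellogenin signals were high on all vitellogenic arrays, and 16 clusters of the design belong to vitellogenin genes and were higher there. The cluster used for the split, at chr22:25342160-25353294 on the minus strand in the coordinates of the authors' files (build not given in the sources used here), had signals of 12.74, 13.30, 13.41, 13.55 and 13.52 on vitellogenic arrays and 1.56, 2.23 and 1.27 on non-vitellogenic arrays. A vitellogenin without the phosphate-rich phosvitin domain, *vtg3*, had 10.97, 12.93, 13.50, 13.55 and 13.49 on vitellogenic arrays, against 1.92, 1.51 and 1.89. The signals of *vtg6* were 10.19, 12.87, 13.33, 13.64 and 13.33 on vitellogenic arrays and 2.94, 3.29 and 2.65 on non-vitellogenic arrays. No array lay between the groups, and for all 6 vitellogenin genes that could be named the lowest vitellogenic signal was that of batch 1 OF 1. By the brightest cluster of each, the differences of these genes were 7.18 to 11.01 log2 units. For *vtg2* this is a different cluster from the one used for the split, whose own difference was 11.60. All these differences follow from the split, and because vitellogenin genes resemble each other in sequence, their clusters may share RNA.

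The other markers of the state followed the same division of arrays. The estrogen receptor gene *esr1*, whose product switches on vitellogenin genes, had signals of 7.63, 8.97, 10.70, 10.61 and 10.55 on vitellogenic arrays and 4.53, 4.16 and 5.16 on non-vitellogenic arrays. Its difference was 4.60 log2 units (standard error 0.41). The signal of *nots* (nothepsin, an aspartic protease of fish liver) was 8.17, 10.62, 11.85, 11.73 and 11.62 on vitellogenic arrays and 3.45, 3.02 and 3.21 on non-vitellogenic arrays, a difference of 7.17 (standard error 0.67). For both genes the groups did not overlap, and batch 1 OF 1 was the lowest vitellogenic array. The differences of the other nuclear estrogen receptor genes were 0.10 for *esr2a* and −0.11 for *esr2b*, with limma adjusted p-values of 0.923 and 0.878. Of the 9 measured members of a list of estrogen-responsive genes that are not vitellogenins, 2 were higher, against 0.236% of all genes. These were *esr1* and *nots*, the markers of the state given above, so the count says little about the other members. The median difference of the 9 was 0.10, against −0.01 over all genes. The call of *esr1* was lost without batch 1 control 2, and that of *nots* without batch 1 control 2 and without batch 1 OF 2.

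**Figure D1:**
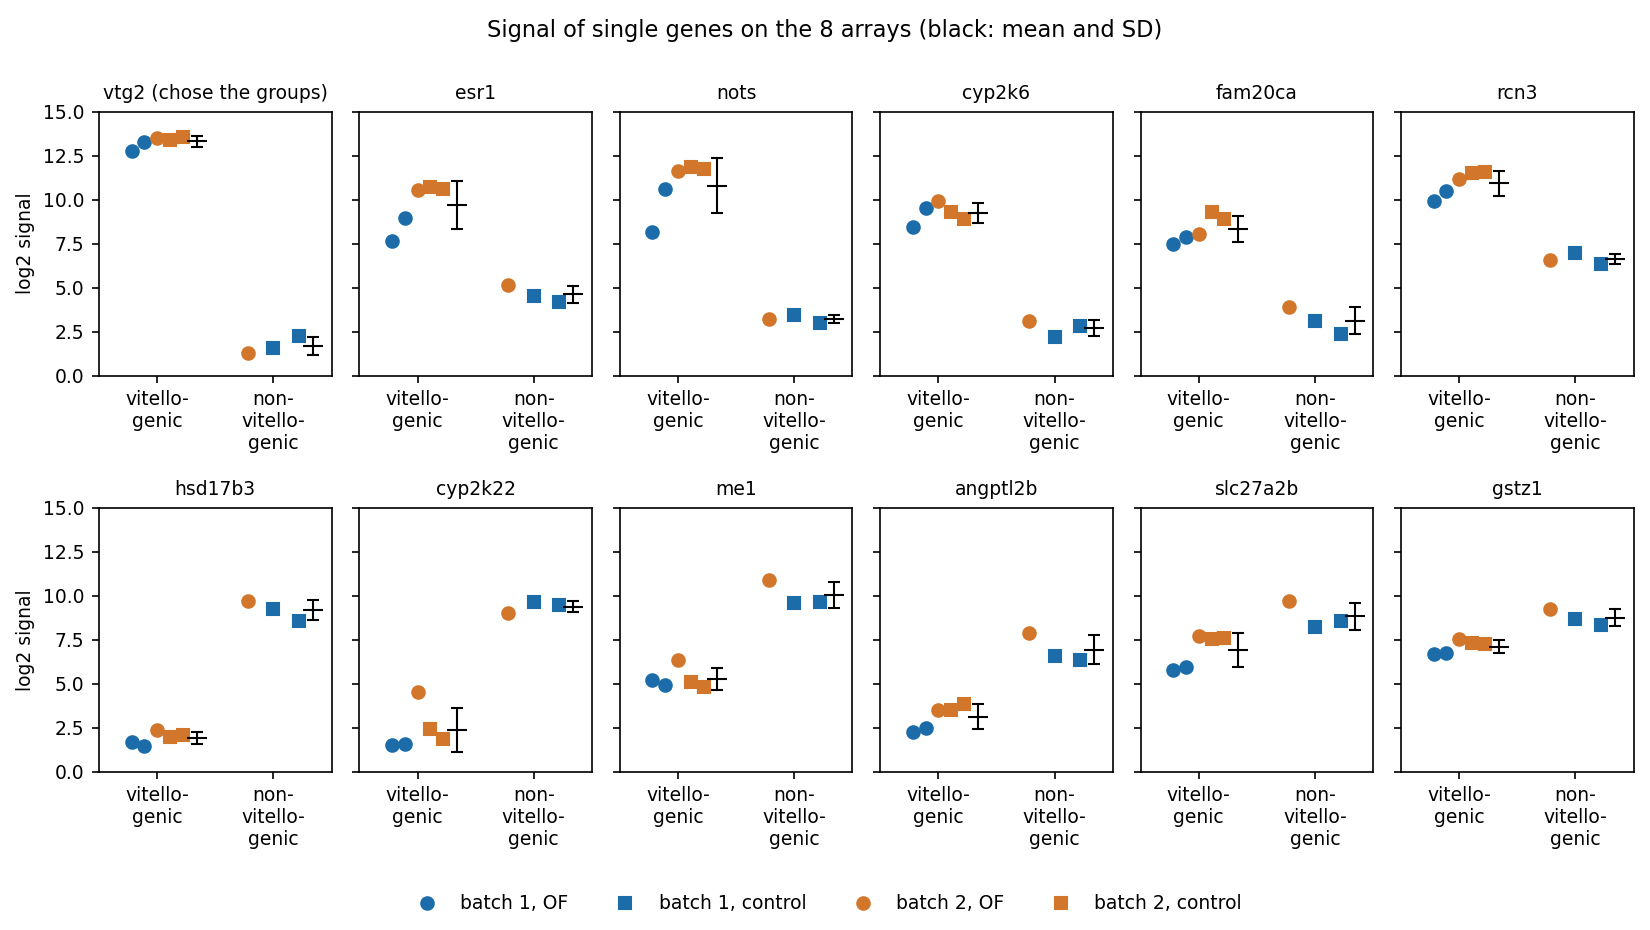
Log2 signal (vertical axis) of *vtg2*, which chose the groups, and of 11 other genes, with vitellogenic arrays left of non-vitellogenic arrays. Points are single fish, with blue for batch 1, orange for batch 2, circles for OF and squares for control, and black bars are mean and SD; the vitellogenic signals of *esr1* lie between 7.63 and 10.70 and those of *hsd17b3* between 1.48 and 2.39, apart from the non-vitellogenic arrays in both panels.

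Across all clusters, 110 were higher and 201 lower in vitellogenic livers at an adjusted p under 0.05 (limma with batch as a term, Benjamini-Hochberg over 59300 clusters), that is 0.185% and 0.339% of the clusters tested. At an unadjusted p under 0.05 the counts were 3168 and 5017. With 1 cluster per gene, 56 of 23703 genes (0.236%) were higher and 116 (0.489%) lower, at p-values still adjusted over all clusters. Adjusted over the 23703 genes, 114 were higher and 244 lower. Leaving out the 6 vitellogenin genes, the 50 higher genes differed by 0.91 to 8.33 log2 units, with a median of 3.67. The 116 lower genes differed by 0.77 to 7.44 in size, with a median of 1.81. All 56 and all 116 had the same direction in both batches, with no overlap of the groups within either batch. Over all genes tested, 9.21% were higher and 11.8% lower with no overlap within both batches. The 56 and 116 genes were selected by a fit to these same arrays, so their likeness between batches is largely built in. The study's methods call a cluster at more than 2-fold and p under 0.05 without adjustment. By these cut-offs 1149 genes (4.85%) were higher and 1108 (4.67%) lower.

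These counts depended on single fish. With 1 array left out they ranged from 29 to 157 clusters higher and from 29 to 121 lower. Without batch 1 OF 1 there were 64 higher and 42 lower, without batch 1 OF 2 36 and 33, without batch 1 control 1 49 and 57, and without batch 1 control 2 29 and 29. Without batch 2 OF 1 there were 69 and 109, without batch 2 OF 2 117 and 96, and without batch 2 control 2 43 and 63. Once batch 2 OF 2 is left out, batch 2 holds no non-vitellogenic array. The difference in that fit comes from batch 1 alone, where the split is the same as OF against control. Without batch 2 control 1 the counts were 157 and 121. Some genes were followed one by one through these fits. They were chosen as described under the processing, many for a small p on these same arrays, and not all are printed. Of the 63 that passed the test and are not vitellogenins, 14 passed in all 8 of these fits. They were *cyp2k6*, *fam20ca*, *rcn3*, *acsl5* and *cyp51* among higher genes, and *hsd17b3*, *angptl2b*, *slc27a2b*, *LOC101883868*, *me1*, *si:ch211-93f2.1*, *gstz1*, *si:ch211-24o8.2* and *ret* among lower genes.

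Genes of steroid and xenobiotic metabolism were among the largest differences in both directions. The cytochrome P450 gene *cyp2k6* (chr3:12440711-12450736, minus strand, build not given) had signals of 8.46, 9.53, 9.31, 8.90 and 9.92 on vitellogenic arrays and 2.21, 2.83 and 3.11 on non-vitellogenic arrays. It rose by 6.38 log2 units (standard error 0.34, limma adjusted p = 0.000704), with 6.47 in batch 1 and 6.27 in batch 2. A gene of the same P450 subfamily, *cyp2k22*, had the opposite pattern. Its signals were 1.51, 1.58, 2.44, 1.88 and 4.55 on vitellogenic arrays and 9.63, 9.49 and 9.04 on non-vitellogenic arrays (difference −7.19, standard error 0.67, adjusted p = 0.0122). The call of *cyp2k22* was lost without batch 1 OF 2 and without batch 1 control 2. The gene with the smallest p among lower genes was *hsd17b3*, whose enzyme reduces androstenedione to testosterone. Its signals were 1.68, 1.48, 1.99, 2.07 and 2.39 on vitellogenic arrays, below the median of all clusters on each array, and 9.23, 8.59 and 9.72 on non-vitellogenic arrays. It fell by 7.44 (standard error 0.20, adjusted p = 2.23e-05), by 7.33 in batch 1 and by 7.57 in batch 2. A gene for the inactivation of cortisol, *hsd11b2*, had 5.07, 5.04, 6.15, 6.83 and 8.48 on vitellogenic arrays and 9.12, 9.04 and 9.82 on non-vitellogenic arrays. It did not pass (limma adjusted p = 0.0545). Of 58 genes of xenobiotic and steroid metabolism, 1 was higher and 3 were lower, against 0.236% and 0.489% of all genes, the third being the glutathione transferase gene *gstt1a* (difference −1.15, adjusted p = 0.0468, passing in 1 of 8 fits with an array left out). The median difference of the list was −0.46.

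Some of the higher genes encode proteins of the endoplasmic reticulum (ER) or of secreted-protein processing, and they are not members of the list of genes for entry into the ER and secretion, described after them. *rcn3*, a calcium-binding protein of the endoplasmic reticulum, had signals of 9.91, 10.48, 11.51, 11.59 and 11.16 on vitellogenic arrays and 6.95, 6.35 and 6.59 on non-vitellogenic arrays. It rose by 4.10 (standard error 0.32, adjusted p = 0.00593). *fam20ca* belongs to the family of FAM20C, a kinase that in mammals phosphorylates secreted proteins. Its signals were 7.48, 7.86, 9.28, 8.90 and 8.06 on vitellogenic arrays and 3.08, 2.39 and 3.93 on non-vitellogenic arrays, a rise of 4.88 (standard error 0.31, adjusted p = 0.00216). The groups stood apart for both genes. Among genes named with their values known, the ER prolyl isomerase gene *fkbp11* rose by 3.68 (adjusted p = 0.0425) and *bhlha15*, in mouse a transcription factor of secretory cells, rose by 2.23 (adjusted p = 0.036). Each of these passed in 1 of 8 fits with an array left out, and another cluster of *bhlha15* had a difference of 1.66 (adjusted p = 0.115).

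Of 73 genes for entry into the ER, folding and secretion, 0 passed the limma adjusted p, 68 differed upwards and 5 downwards. By the methods' cut-offs 14 were higher and 1 lower, against 4.85% and 4.67% of all genes. The median difference was 0.76, with 0.46 in batch 1 and 1.22 in batch 2. The signals of *xbp1*, a transcription factor of the unfolded protein response, were 8.81, 9.19, 9.68, 9.05 and 8.53 on vitellogenic arrays and 7.48, 6.18 and 7.33 on non-vitellogenic arrays (difference 1.99, adjusted p = 0.0793). The list's mean signal was 7.97, 7.37, 9.51, 9.85 and 8.86 on vitellogenic arrays and 7.67, 6.47 and 8.18 on non-vitellogenic arrays. Within batch 1 the list means of the groups overlapped, with OF 2 below control 1. They lay apart in batch 2, where the non-vitellogenic group is 1 fish. Of 92 cytosolic ribosomal protein genes, 85 differed upwards and 7 downwards with a median of 0.42, and 0 passed the adjusted p. The 44 translation factors and tRNA synthetases had a median of 0.46, and 0 passed. Of the 48 proteasome genes 0 passed, with a median of 0.30.

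The sterol synthesis list had the most members past the test after the vitellogenins were set aside. Cholesterol is made from acetyl-CoA through mevalonate and squalene, and genes of this route are known to be under common control of Srebf2. Of 26 measured members, 10 rose and 0 fell, against 0.236% and 0.489% of all genes. The median difference was 1.83, with 1.64 in batch 1 and 1.53 in batch 2. The groups did not overlap within either batch for 19 higher members, against 9.21% of all genes. Whichever array was left out, the count of 10 fell, to between 1 and 6, with 1 without batch 1 control 2.

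Steps before squalene were represented by *hmgcra*, *mvda* and *fdps*, all named with their values known. The rate-limiting reductase gene *hmgcra* had signals of 9.96, 10.52, 11.33, 10.97 and 10.37 on vitellogenic arrays and 7.14, 6.58 and 4.87 on non-vitellogenic arrays, a rise of 4.51 (standard error 0.56, adjusted p = 0.0295). *fdps*, which makes farnesyl diphosphate, rose by 3.02 and the mevalonate diphosphate decarboxylase gene *mvda* by 1.89. A second, dimmer cluster of each of these had a difference of 1.56 for *fdps* and 3.93 for *mvda* and did not pass (adjusted p = 0.169 and 0.107). Squalene epoxidase, *sqlea*, had 8.67, 7.18, 8.45, 8.19 and 7.07 on vitellogenic arrays, against 3.28, 3.14 and 2.88, and rose by 4.85 (standard error 0.43, adjusted p = 0.0101). The call of *sqlea* was lost without 2 of the 8 arrays and those of *hmgcra*, *fdps* and *mvda* without 5 to 7.

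After squalene, *lss* (lanosterol synthase) rose by 3.66 (adjusted p = 0.0191). The lanosterol demethylase gene *cyp51* had signals of 9.81, 10.82, 11.08, 10.82 and 10.82 on vitellogenic arrays and 7.46, 6.70 and 7.42 on non-vitellogenic arrays. It rose by 3.34 (standard error 0.28, adjusted p = 0.00825) and passed whichever array was left out. The sterol reductase gene *hsd17b7* had 6.47, 6.04, 7.74, 7.50 and 6.82 on vitellogenic arrays, against 3.96, 3.38 and 4.66, and rose by 2.63, while another cluster of *hsd17b7* had a difference of 0.36 (adjusted p = 0.533). Rises of 2.76 for *msmo1*, 3.10 for *ebp* and 1.89 for *dhcr7*, all of late steps, had limma adjusted p-values of 0.0466 to 0.0496, and these genes too were named with their values known. With an array left out, *lss* passed in 3 and *hsd17b7* in 4 of 8 fits, and the genes of late steps in 0 or 1. The members that did not pass included *hmgcs1*, for the synthase that makes HMG-CoA (difference 3.78, adjusted p = 0.157), *srebf2* itself (1.05, adjusted p = 0.116) and the LDL receptor gene *ldlra* (−1.20, adjusted p = 0.339).

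**Figure D2:**
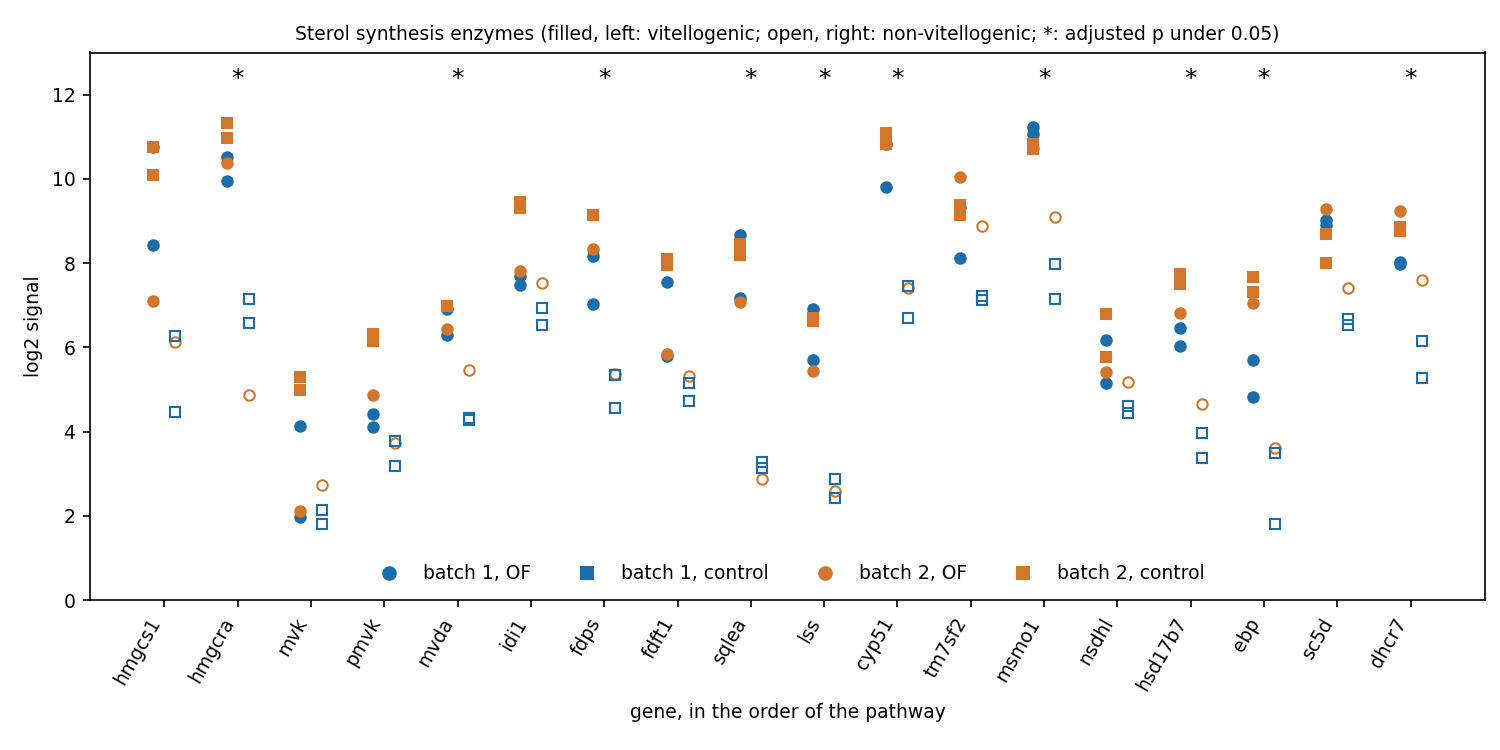
Log2 signal (vertical axis) of enzymes of the sterol synthesis list, in the order of the pathway, with vitellogenic arrays filled and to the left and non-vitellogenic arrays open and to the right; colours mark batches, circles OF and squares control, and asterisks an adjusted p under 0.05. For *cyp51* the vitellogenic signals lie between 9.81 and 11.08 and the non-vitellogenic signals between 6.70 and 7.46.

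Genes that activate, elongate or esterify fatty acids moved in both directions. *acsl5*, an acyl-CoA synthetase that activates long-chain fatty acids, had signals of 6.18, 6.14, 8.79, 7.62 and 8.19 on vitellogenic arrays and 1.82, 1.86 and 2.25 on non-vitellogenic arrays, a rise of 5.02 (standard error 0.40, adjusted p = 0.00593). *slc27a2b*, of the family of very long-chain acyl-CoA synthetases and fatty acid transporters, had 5.79, 5.97, 7.52, 7.62 and 7.73 on vitellogenic arrays and 8.22, 8.59 and 9.71 on non-vitellogenic arrays. It fell by 2.34 (standard error 0.16, adjusted p = 0.00344). For both genes the groups did not overlap, and both calls held with any array left out.

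Acyltransferase genes were found in both directions. The phospholipid acyltransferase genes *agpat4*, *lpgat1* and *mboat2a*, named with their values known, rose by 4.59, 2.88 and 1.70 with limma adjusted p-values of 0.0209 to 0.0375. The signals of *agpat4* were 6.28, 6.54, 9.58, 9.75 and 8.87 on vitellogenic arrays and 2.67, 3.19 and 3.33 on non-vitellogenic arrays. The elongase gene *elovl5*, for polyunsaturated fatty acids, rose by 2.07 (standard error 0.24, adjusted p = 0.0256). The acyltransferase genes for triglycerides, *dgat2* and *mogat3b*, fell by 1.40 and by 1.56, with adjusted p-values of 0.0381 and 0.037. These calls were lost in 5 to 8 of the 8 fits with an array left out. Another cluster of *mogat3b* had a difference of −1.14 and did not pass (limma adjusted p = 0.103).

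Members of the fatty acid synthesis list were found in both directions. *me1*, a malic enzyme that supplies NADPH, had 5.22, 4.92, 5.10, 4.83 and 6.36 on vitellogenic arrays and 9.57, 9.65 and 10.90 on non-vitellogenic arrays, and fell by 4.94 (standard error 0.39, adjusted p = 0.00593). The lipogenic regulator *thrsp* had 7.56, 2.56, 2.59, 2.41 and 2.99 on vitellogenic arrays and 10.31, 11.68 and 9.51 on non-vitellogenic arrays, and its difference of −6.32 had an adjusted p of 0.0597. For *thrsp* the groups did not overlap, but batch 1 OF 1 lay far above the other vitellogenic arrays. Of 24 members, 1 rose and 2 fell, against 0.236% and 0.489% of all genes, with a median difference of −0.06. By the methods' cut-offs 2 were higher and 7 lower, against 4.85% and 4.67% of all genes. Fatty acid synthase, *fasn*, had 8.97, 5.27, 10.13, 9.22 and 6.77 on vitellogenic arrays and 11.43, 6.39 and 5.57 on non-vitellogenic arrays. Its differences were −1.78 in batch 1 and 3.13 in batch 2. The study chose *fasn* for a change with OF, which favours such opposite signs, as described below.

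The list of fatty acid oxidation and PPAR genes had 44 measured members. Of these 0 rose and 5 fell, against 0.236% and 0.489% of all genes, 40 differed downwards, and the median difference was −1.0, with −1.15 in batch 1 and −0.85 in batch 2. By the methods' cut-offs 21 were lower, against 4.67% of all genes, and 0 higher. *pdk2b*, a kinase that shuts off pyruvate dehydrogenase, had 6.10, 6.02, 6.70, 6.75 and 6.92 on vitellogenic arrays and 9.25, 8.93 and 8.58 on non-vitellogenic arrays, and fell in the fit over all arrays (standard error 0.26, adjusted p = 0.0175), with −3.03 in batch 1 and −1.79 in batch 2. The peroxisomal oxidase gene *acox3* fell as well (−1.34 in batch 1 and −1.02 in batch 2), as did the dienoyl-CoA reductase gene *decr1* (−1.81 over all arrays), the electron transfer gene *etfb* (−1.24) and, named with its values known, the dehydrogenase gene *acadl* (−1.23). With an array left out the count of 5 became 0 to 4. Another cluster of *acox3* had a difference of −1.02 over all arrays and did not pass (limma adjusted p = 0.0572).

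Of 37 genes of glycolysis and gluconeogenesis, 0 rose and 4 fell (0.489% of all genes fell), with a median of −0.53 and 0 to 3 falling with an array left out. The gluconeogenic phosphatase gene *g6pc1a.1* had 6.97, 7.82, 8.70, 8.72 and 8.38 on vitellogenic arrays and 9.91, 9.93 and 10.29 on non-vitellogenic arrays, and fell by 2.17 (standard error 0.26, adjusted p = 0.0288). *pck2*, the mitochondrial phosphoenolpyruvate carboxykinase, fell by 1.85, and the glycolytic genes *eno3* and *tpi1b* fell by 1.21 and by 1.58. These passed in 0 to 3 of 8 fits with an array left out. Of 28 genes of growth hormone and insulin-like growth factor signalling, 27 differed downwards with a median of −0.80. There *igfbp2a*, a binding protein of these growth factors, fell by 1.84 (adjusted p = 0.0339, passing in 1 of 8 such fits), and *irs2b*, an insulin receptor substrate, had a difference of −3.28 that did not pass (adjusted p = 0.0561).

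Breakdown of tyrosine was represented by successive enzymes. *hgd* opens the ring of homogentisate, and *gstz1* isomerizes the product of that step. The signals of *gstz1* were 6.68, 6.78, 7.32, 7.25 and 7.55 on vitellogenic arrays and 8.67, 8.33 and 9.26 on non-vitellogenic arrays, and it fell by 1.82 (standard error 0.15, adjusted p = 0.00641). *hgd* had 9.75, 9.84, 10.38, 10.12 and 10.42 on vitellogenic arrays, against 10.88, 11.20 and 11.63, and fell by 1.28 (adjusted p = 0.0219, passing in 2 of 8 fits with an array left out). Of 51 genes of amino acid breakdown and the urea cycle these 2 fell (0.489% of all genes did) and 0 rose, 43 differed downwards, and the median was −0.89. Of 22 apolipoprotein and lipid export genes 0 passed the limma adjusted p, 6 were lower by the methods' cut-offs (4.67% of all genes) and 0 higher. Their median was −0.45. *apoa1a*, the main protein of high-density lipoprotein, had 8.17, 8.22, 5.59, 4.10 and 7.86 on vitellogenic arrays and 11.04, 11.66 and 11.92 on non-vitellogenic arrays (difference −4.40, adjusted p = 0.0997).

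Erythrocyte markers moved with the lower genes. All 11 measured erythrocyte markers differed downwards with no overlap within either batch, their median was −1.60, and 3 fell. Over all genes 11.8% were lower with no overlap and 0.489% fell. The globin gene *hbba2* had 2.90, 2.67, 5.95, 4.52 and 5.69 on vitellogenic arrays and 9.46, 7.34 and 8.71 on non-vitellogenic arrays, a fall by 4.63 (adjusted p = 0.046). *alas2*, for heme synthesis in erythrocytes, fell by 2.09, and the anion exchanger gene *slc4a1a*, named with its values known, by 1.81. These 3 calls held in 0 or 1 of 8 fits with an array left out. Other clusters of *alas2* had differences of −1.67 and −0.87 and did not pass (limma adjusted p = 0.0567 and 0.611). The mean signal of the erythrocyte list was 2.63 to 4.89 on vitellogenic arrays and 4.47 to 6.21 on non-vitellogenic arrays. The 10 hepatocyte markers had a median of −0.56 and 0 passed, with list means of 9.13 to 10.13 on vitellogenic arrays, 10.14 on batch 1 control 1 and 11.64 on batch 2 OF 2. Batch 1 control 2 lay among the vitellogenic values of batch 2, but within each batch the list means of the groups did not overlap. All 10 hepatocyte markers differed downwards, 6 of them with no overlap within either batch, against 11.8% of all genes. In bulk liver, fewer cells of a type and less RNA per cell cannot be told apart, and the part of erythrocytes in the lower genes was not tested.

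**Figure D3:**
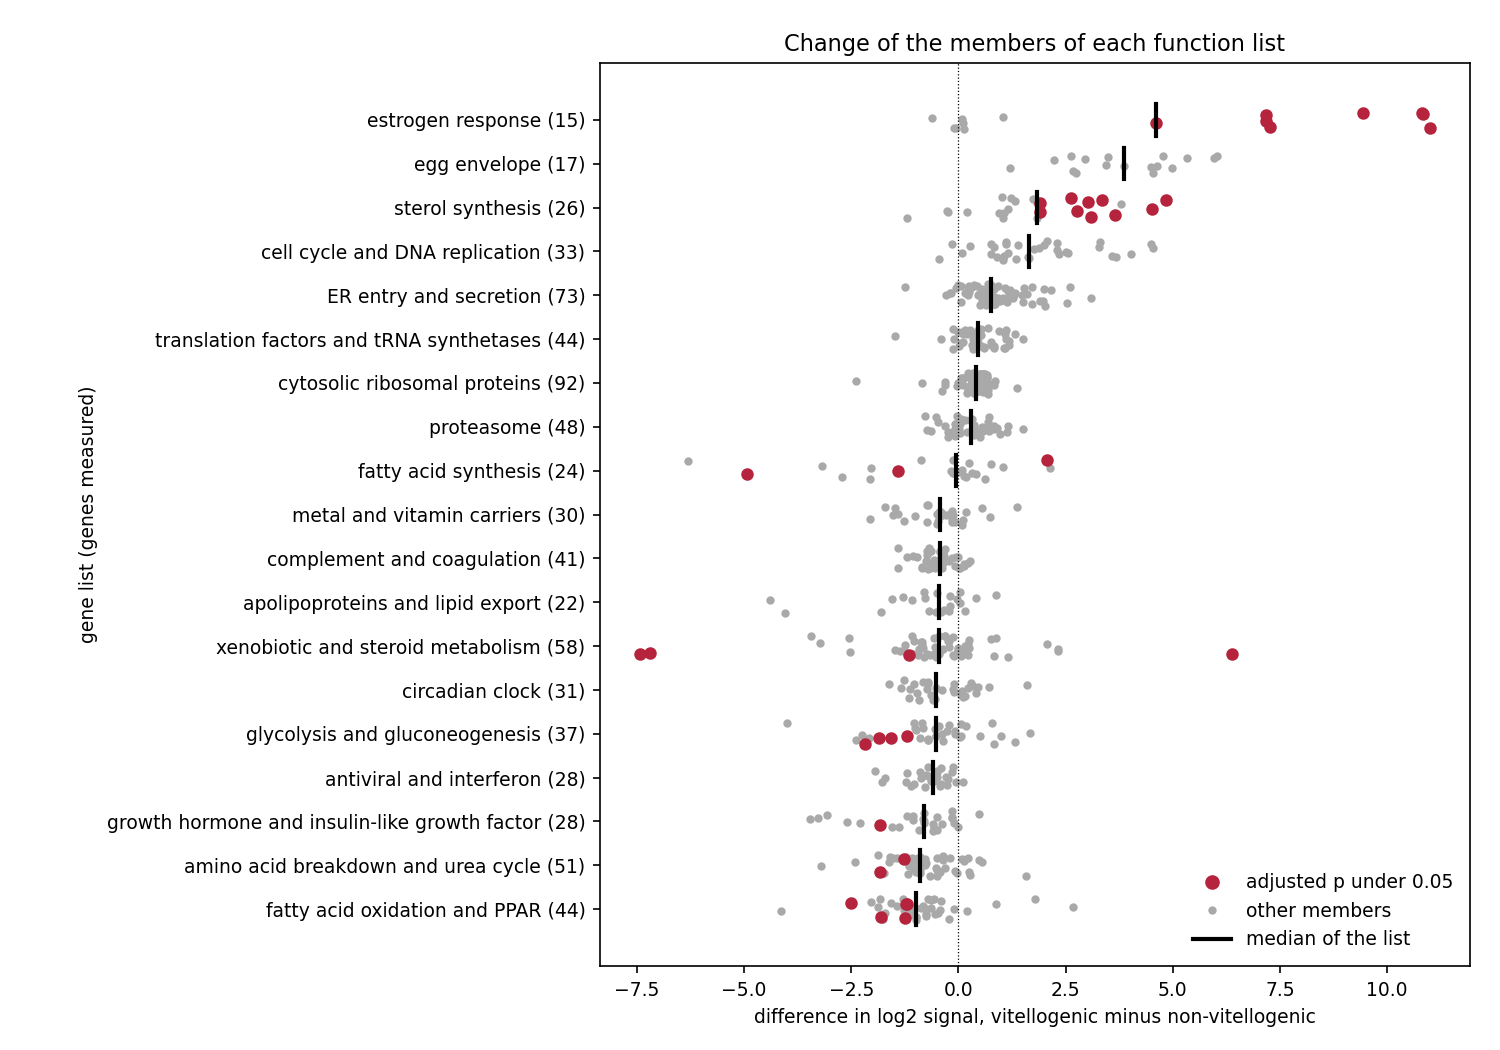
Difference in log2 signal, vitellogenic minus non-vitellogenic (horizontal axis), of each measured member of the function lists, with the number of genes in brackets, members past the adjusted p as large red points and the median of each list as a black bar. The median of sterol synthesis lies at 1.83 with 10 red points, and that of fatty acid oxidation at −1.0 with 5.

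The secreted angiopoietin-like gene *angptl2b* had 2.28, 2.51, 3.54, 3.86 and 3.50 on vitellogenic arrays and 6.61, 6.34 and 7.87 on non-vitellogenic arrays, and fell by 4.15 (standard error 0.15, adjusted p = 7.11e-05). *ret*, a receptor tyrosine kinase for ligands of the GDNF family, had 1.55, 1.71, 2.13, 2.12 and 1.85 on vitellogenic arrays and 4.19, 4.27 and 6.09 on non-vitellogenic arrays, and fell by 3.22 (adjusted p = 0.012). *LOC101883868*, described as similar to a calcium/calmodulin-dependent phosphodiesterase, fell by 4.07 (adjusted p = 0.00593). *robo3*, a guidance receptor, fell by 3.20, and *bbc3*, a pro-apoptotic BH3-only gene, by 1.73, with adjusted p-values of 0.012 and 0.011 and a call in 6 of 8 fits with an array left out. Another cluster of *bbc3* had a difference of −2.12 and did not pass (limma adjusted p = 0.0534).

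The lists of egg envelope, oocyte and cell cycle genes had large differences, and 0 of their members passed the limma adjusted p. All 17 measured egg envelope genes were under a signal of 3 on every non-vitellogenic array, and all 17 were highest on batch 1 OF 1. Signals under 3 were common on non-vitellogenic arrays, whose medians were 2.12 to 2.56. The shares of all genes with either trait were not counted, here or for the oocyte and cell cycle lists below. *zp2.6* had 10.11, 8.58, 4.22, 5.87 and 5.72 on vitellogenic arrays and 1.58, 1.52 and 1.74 on non-vitellogenic arrays (difference 5.97, standard error 0.92, limma adjusted p = 0.0525). The difference of *zp2.6* was 7.80 in batch 1 and 3.53 in batch 2. The median of the list was 3.85, with 5.70 in batch 1 and 2.20 in batch 2. By the methods' cut-offs 15 of 17 were higher, against 4.85% of all genes. With 1 array left out, 0 to 4 of the 17 passed the adjusted p.

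Markers of oocytes and ovary had the same order of arrays, but the list shares members with the egg envelope list, *zp3b* among them. Their mean signal was 6.15, 4.51, 2.91, 3.65 and 3.74 on vitellogenic arrays and 1.84, 1.90 and 2.05 on non-vitellogenic arrays. Of 25 markers, 0 passed the limma adjusted p, 18 were higher by the methods' cut-offs (4.85% of all genes), 20 were highest on batch 1 OF 1 and 23 were under a signal of 3 on every non-vitellogenic array. *h1m*, a linker histone of oocytes, had 10.02, 7.31, 4.29, 6.60 and 6.52 on vitellogenic arrays and 1.59, 1.77 and 2.75 on non-vitellogenic arrays (adjusted p = 0.0865). *btg4* and *kpna7*, in mouse an mRNA decay adaptor and an importin of oocytes, were named with their values known and rose by 5.68 and 4.50 (adjusted p = 0.0466 and 0.041, each passing in 1 of 8 fits with an array left out). The signals of *btg4* were 9.87, 6.96, 4.92, 7.16 and 6.65 on vitellogenic arrays, against 1.68, 2.05 and 1.72.

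Of 33 cell cycle genes 31 differed upwards, 19 were higher by the methods' cut-offs (4.85% of all genes), and 0 passed the limma adjusted p. The median was 1.64, with 2.49 in batch 1 and 0.78 in batch 2, and 28 were highest on batch 1 OF 1. Cyclin A2, *ccna2*, had 8.57, 6.70, 3.73, 5.75 and 6.45 on vitellogenic arrays and 2.55, 1.57 and 2.14 on non-vitellogenic arrays (difference 4.54, adjusted p = 0.0749). The order of arrays for these 3 lists was not that of the vitellogenins, which were lowest on batch 1 OF 1. The oocyte markers moved with the egg envelope and cell cycle genes, and their part in these differences was not tested. Because the oocyte and egg envelope lists share members, part of their likeness is built in. The 15 testis markers had a median of 0.08, but 8 of them were under a signal of 3 on every array, so this median carries little information. The brightest of them moved in different directions, with −3.44 for *hsd11b2*, given above, −0.13 for *gsdf* and 1.65 for *cyp17a1*. Of the 15, 0 passed the adjusted p.

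A pair of neighbouring genes had the order of the egg envelope list. *si:dkeyp-98a7.4* (chr22:26190513-26191750) and *si:dkeyp-98a7.8* (chr22:26201097-26202086), both on the plus strand in coordinates whose build is not given, had the largest difference among higher genes that are not vitellogenins and a like one. The signals of *si:dkeyp-98a7.4* were 12.34, 10.44, 6.91, 8.98 and 9.47 on vitellogenic arrays and 1.86, 2.32 and 1.43 on non-vitellogenic arrays. It rose by 8.33 (standard error 0.79, adjusted p = 0.0125), by 9.30 in batch 1 and 7.02 in batch 2, and passed in 6 of 8 fits with an array left out. *si:dkeyp-98a7.8* rose by 7.88 (adjusted p = 0.0142) and passed in 5. Clusters of such neighbours can share RNA.

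A second pair lies beside *vtg2*. *si:dkey-4c23.3* (chr22:25361333-25372591, minus strand) and *si:dkey-179j5.2* (chr22:25426573-25439945, minus strand) follow the cluster used for the split. *si:dkey-179j5.2* had 8.48, 10.89, 12.05, 11.93 and 12.15 on vitellogenic arrays and 2.57, 3.28 and 2.20 on non-vitellogenic arrays, and *si:dkey-4c23.3* had 5.85, 7.74, 9.85, 9.20 and 9.97, against 1.69, 1.56 and 2.25. Batch 1 OF 1 was the lowest vitellogenic array for both, as for the vitellogenins. Older names of vitellogenin genes in the RefSeq gene table carry the prefix of the first of these, so both are given as description. Both went through the same fit and passed it. They are therefore among the 50 higher genes and the 63 genes followed one by one that are counted above as not vitellogenins, as are *esr1* and *nots*.

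**Figure D4:**
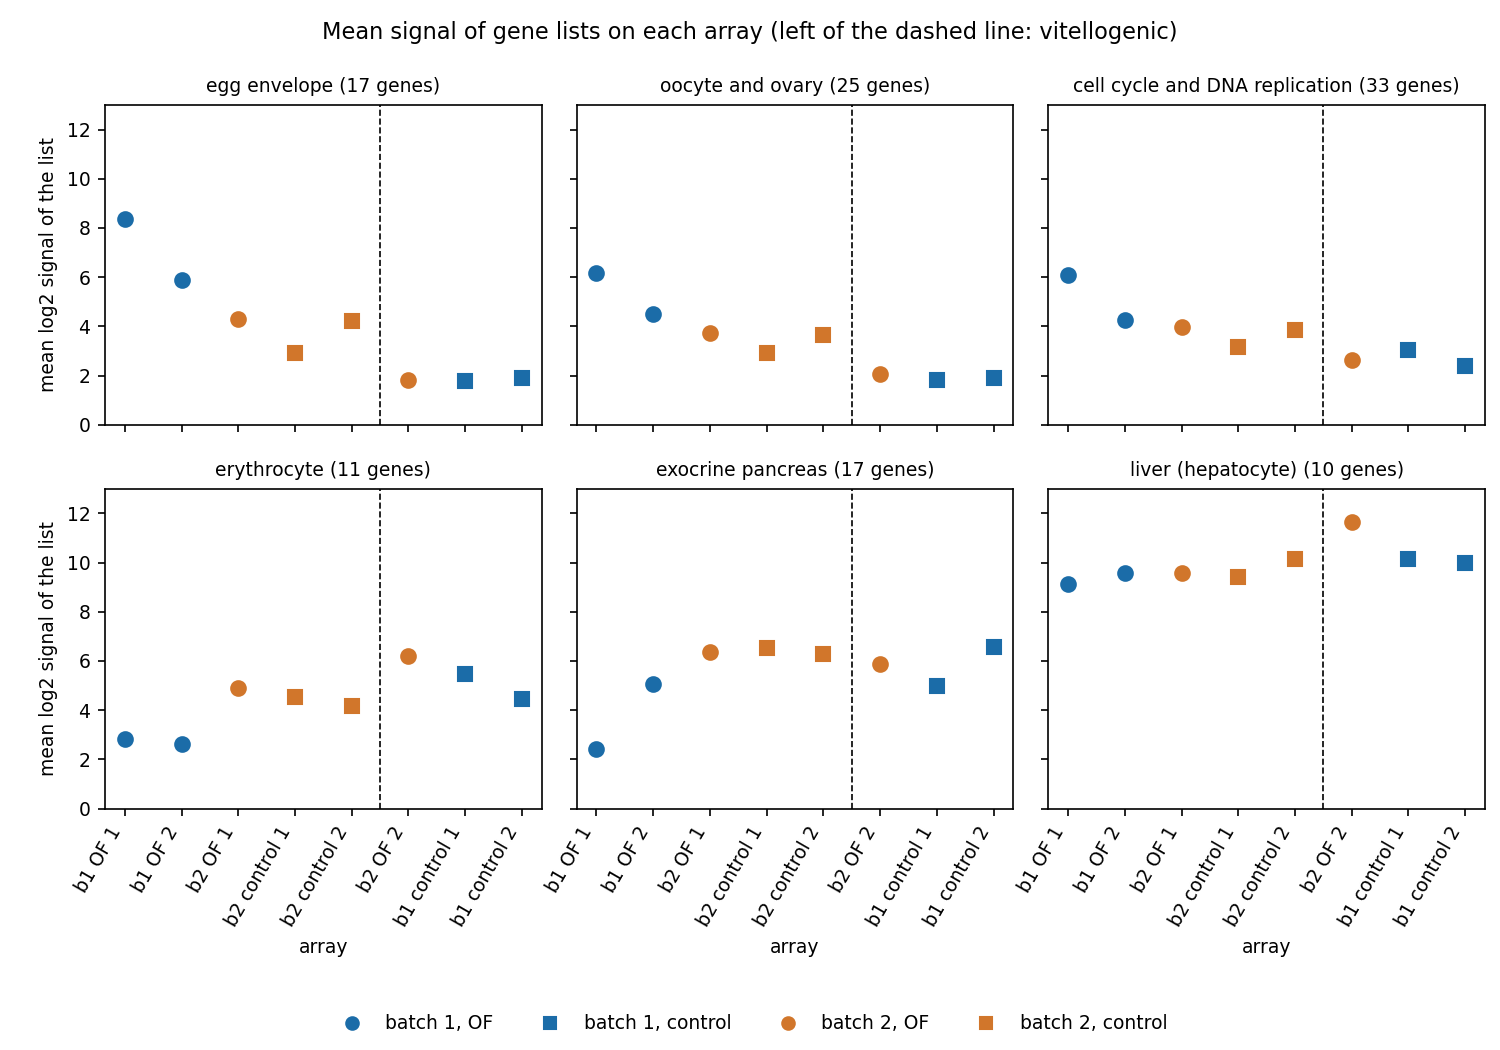
Mean log2 signal of the members of 6 gene lists (vertical axis) on each array, with vitellogenic arrays left of the dashed line; b1 and b2 are the batches, circles OF and squares control. The oocyte and ovary mean lies between 2.91 and 6.15 on vitellogenic arrays and between 1.84 and 2.05 on non-vitellogenic arrays, and is highest on batch 1 OF 1.

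The batches were also taken alone. By the methods' cut-offs, batch 1 alone gave 1933 higher clusters (3.26%) and 2055 lower clusters (3.47%). Batch 2 alone gave 1105 higher (1.86%) and 2377 lower (4.01%). At an adjusted p in limma, 0 clusters were higher and 0 lower in batch 1, where 6296 had an unadjusted p under 0.05. In batch 2, 30 (0.0506%) were higher and 16 (0.027%) lower, and there the single non-vitellogenic fish is assumed to vary like the other group. Of the 50 higher genes that are not vitellogenins, 25 had a larger difference in batch 1 than in batch 2, as had 63 of the 116 lower genes.

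The difference between the batches was itself tested, and 13 clusters (0.0219%) passed limma's adjusted p for it. The lowest adjusted p was 0.0404. The count was 0 to 5 with an array left out, and 0 after quantile normalization or among clusters with a mean signal of at least 5. Among the genes whose values are printed as passing the test over all arrays, none passed for this difference.

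**Figure D5:**
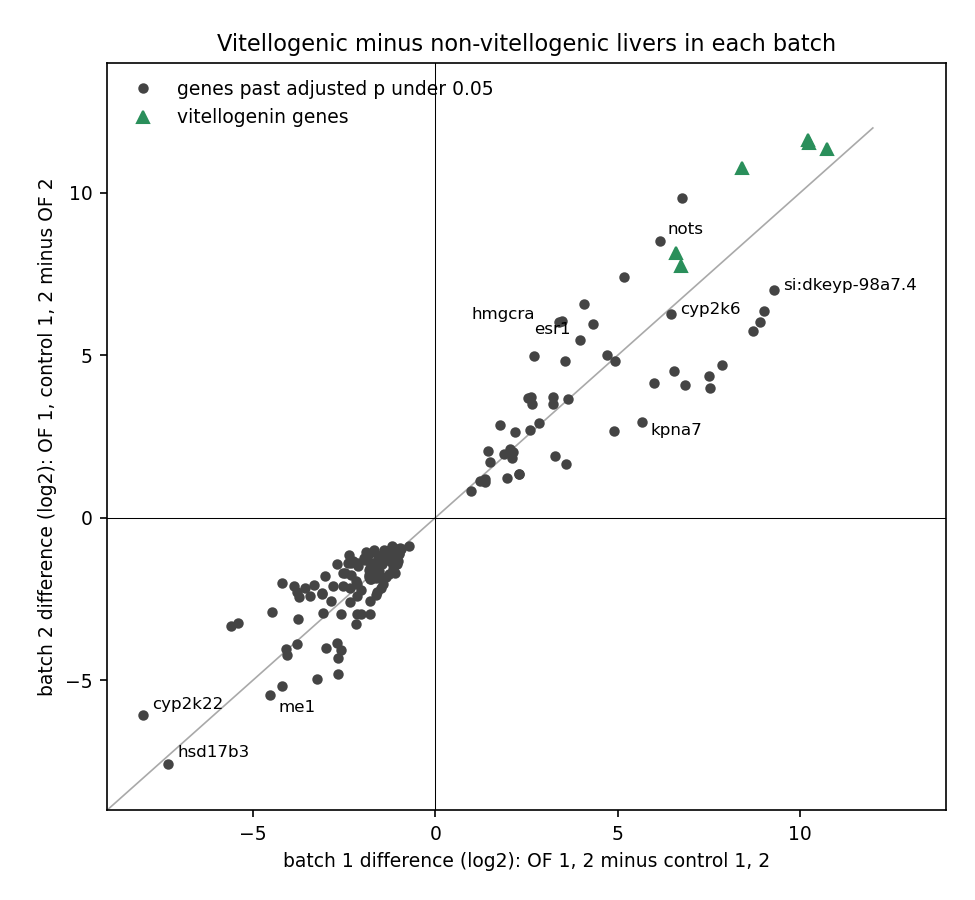
Difference in log2 signal, vitellogenic minus non-vitellogenic, in batch 1 (horizontal axis) and in batch 2 (vertical axis) for the genes that passed the test over all 8 arrays, vitellogenin genes as triangles, with a line of equal differences. *hsd17b3* lies at −7.33 and −7.57 and *cyp2k6* at 6.47 and 6.27.

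With OF as a term beside the split and batch, 179 clusters (0.302%) were higher and 245 (0.413%) lower in vitellogenic livers. Of the clusters called with the split alone, 97 of 110 and 144 of 201 were called here too. For OF itself in this fit, limma called 0 clusters higher and 0 lower. The lowest adjusted p was 0.173, and 4295 clusters had an unadjusted p under 0.05. This fit sets OF apart from the split only through batch 2, where 1 OF fish was vitellogenic and the other was not.

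Genes that the study measured by quantitative PCR, *mxf*, *hamp*, *irak3*, *fasn*, *scd*, *loxl2a*, *foxo3b* and *soat1*, were chosen on these samples. Of these 8, 0 passed for the split, with limma adjusted p-values of 0.348 to 0.962. The study took them from genes that changed with OF in both batches. In batch 1 the OF fish are the vitellogenic ones, and in batch 2 the only non-vitellogenic fish received OF. That choice favours opposite differences for the split in the batches. The lack of calls therefore says little about whether these genes differ with the vitellogenic state. The desaturase gene *scd* had 8.35, 6.26, 11.43, 8.29 and 9.94 on vitellogenic arrays and 11.31, 10.26 and 4.28 on non-vitellogenic arrays. Its differences were −3.48 in batch 1 and 5.61 in batch 2. Hepcidin, *hamp*, which limits iron export, had 3.86, 4.23, 5.21, 3.24 and 3.84 on vitellogenic arrays and 2.99, 2.49 and 9.37 on non-vitellogenic arrays, so that batch 2 OF 2 alone was high.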

How the data were processed

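Liver RNA of 8 zebrafish was measured on GeneTitan ZebGene 1.1 ST arrays. The authors summarised and normalized them in the Transcriptome Analysis Console (GC count normalization, signal space transformation) and deposited log2 signals for 75212 clusters. Worksheets with the authors' group means on the log2 scale served as a check and for names, and their columns of fold changes, standard deviations and p-values were not used. No source used here gives the genome build. Of 59384 clusters in the worksheets, 84 reporter or rRNA clusters were left out. Of the 59300 tested, 24582 carry a single symbol of the file, 5643 were named through a RefSeq gene table of assembly GRCz12tu, 1195 match several genes and 27880 are unnamed. Among the named clusters, 1372 with LOC symbols were renamed through the gene ID. For genes with more than 1 cluster, the brightest by mean signal was used.

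The groups were computed from the *vtg2* signal. The fit (limma 3.58.1, R 4.3.3, lmFit then eBayes, two-sided) of log2 signals had batch and the split as terms, and p-values were adjusted by Benjamini-Hochberg over all clusters. Differences are vitellogenic minus non-vitellogenic, with the standard error of the fit. The number of arrays limits the precision. The fit was tested on simulated data. Python 3.11.15 with pandas 2.3.3 and matplotlib 3.10.9 wrote tables and figures.

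The alternatives were quantile normalization, centring on the median, a mean signal of at least 5, a trended and robust variance, OF as a term, the replicate number as a block, *vtg2* as a continuous covariate, no batch term, the methods' cut-offs, 1 cluster per gene, each batch alone, and leaving out each array. The genes named are the vitellogenin genes, *esr1* and *nots*, 12 genes per direction with the smallest p among those changed by over 1 log2 unit the same way in both batches, up to 4 members of each of 19 function lists with the smallest p, up to 3 members of each of 12 cell type lists with the highest signal, and the genes of the study's quantitative PCR. Others were added with their values known, which is said where they are printed. All of these are the genes followed one by one, and not each is printed. The groups, members, lists and tests were chosen with earlier results of these data known. Lists are described by counts and medians, with no set test. A member of the sterol synthesis list is not reported here and was left out of that list.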

Additional observations from a re-analysis of the deposited data

Results flagged for a closer look

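Among 153 genes screened over the 5 vitellogenic arrays, 7 had 1 array whose gap to the nearest other array took more than a share of 0.71 of the range. Chance alone gives this for about 1 in 20 groups of arrays, and the causes were not tested. On batch 1 OF 1, *cyp51* was at 9.81 (others 10.82 to 11.08) and *thrsp* at 7.56 (others 2.41 to 2.99). Markers of exocrine pancreas were low on the same array, with *prss59.2* at 3.67 (others 9.93 to 10.62), *prss59.1* at 2.62 (others 8.89 to 10.79) and *cpa5* at 3.97 (others 7.12 to 7.95). On batch 2 OF 1, *me1* was at 6.36 (others 4.83 to 5.22). On batch 1 OF 2, the interleukin receptor gene *il7r* was at 7.67 (others 1.67 to 3.40).

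The difference between the groups differed between the batches for 13 clusters, of which those with a gene name belong to 6 genes. In these sentences the value is the difference in batch 2 minus that in batch 1. For *acot12*, an acetyl-CoA hydrolase, it was −6.51, and for *cthl* it was −6.17. The signals of *acot12* were 2.12, 2.13, 2.23, 2.43 and 2.66 on vitellogenic arrays and 2.26, 2.65 and 9.27 on non-vitellogenic arrays, so that batch 2 OF 2 alone was high. The same array was alone high for *cthl*, with 1.89, 1.32, 2.33, 2.11 and 2.34 on vitellogenic arrays and 1.42, 1.33 and 8.20 on non-vitellogenic arrays. For *si:dkey-224e22.2* and *zgc:123278* the values were −4.42 and −4.74. For *chsy3*, a chondroitin synthase, it was 3.84. For *mfi2*, an iron-binding protein of the transferrin family, it was 4.85, with signals of 2.32, 2.22, 7.73, 7.40 and 7.16 on vitellogenic arrays and 2.25, 2.06 and 2.46 on non-vitellogenic arrays. Batch 2 has 1 non-vitellogenic fish, and the values of these genes rest on it, except that for *chsy3* the difference was −2.89 in batch 1 and 0.94 in batch 2.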

How the results depend on the processing

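All 110 higher and 201 lower clusters kept their direction under every alternative that used arrays of both batches and in which they were fitted. The fit without batch 2 OF 2 is among these, but its difference came from batch 1 alone. Within each batch alone direction was counted by gene, and all 56 higher and 116 lower genes kept it. Because these clusters and genes were selected by a fit to the same arrays, a kept direction is largely built in. The number of clusters called moved from 110 higher and 201 lower. Counts within 1.5 times of these came from quantile normalization (97 higher, 146 lower), centring on the median and *vtg2* as a continuous covariate. Among clusters with a mean signal of at least 5, 286 were higher and 441 lower, where fewer clusters were tested. A trended and robust variance gave 189 higher, OF as a term 179 higher, no batch term 39 and 30, and the methods' cut-offs 1779 and 1955. Batch 1 alone gave 0 and 0 and batch 2 alone 30 and 16. Leaving out 1 array gave 29 to 157 higher and 29 to 121 lower. The clusters that differed between batches were 0 to 5 with any array but batch 2 OF 2 left out. They were 0 after quantile normalization and 0 at a mean signal of at least 5. The causes were not tested.

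The replicate numbers of the labels were used as names, not as pairs. That replicates are separate fish is read from the study's figure legends. Same-numbered arrays correlated in their deviations at r = 0.113 in batch 1 and −0.0727 in batch 2. With so few arrays these values cannot show whether the numbers pair fish. In batch 2, OF 1 and OF 2 also lay in different groups of the split. With the replicate block, 25 clusters were higher and 20 lower.

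Of the 69 genes followed one by one that passed the threshold, none turned its sign under the alternatives run. The adjusted p no longer passed for 16 after quantile normalization, 11 with OF as a term, 8 with a trended and robust variance, 14 with *vtg2* as a continuous covariate 44 without the batch term and 54 with the replicate block. Of the 14 that passed with any array left out and are not vitellogenins, *fam20ca*, *rcn3*, *cyp51*, *me1*, *gstz1*, *si:ch211-24o8.2* and *ret* were among those lost with the block. The 8 arrays limit precision, and the non-vitellogenic group of batch 2 is 1 fish. Clusters near the median signal of an array carry little information on how low a gene is. The planned description of promoter motifs was not run.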

Other observations

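Further genes with lower signals in vitellogenic livers were named with their values known. Urate oxidase, *uox*, had signals of 10.90, 11.03, 11.49, 11.20 and 11.24 on vitellogenic arrays and 11.87, 12.03 and 12.39 on non-vitellogenic arrays. It fell by 1.03 (standard error 0.13, limma adjusted p = 0.0339). *pdhb*, a subunit of pyruvate dehydrogenase, fell by 1.38 (adjusted p = 0.0344). The transcription factor gene *cebpd* had 7.15, 7.53, 8.49, 8.08 and 7.80 on vitellogenic arrays, against 9.12, 9.17 and 9.72, and fell by 1.72 (adjusted p = 0.0227). With 1 array left out these calls held in 0 to 2 of 8 fits.

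The plasma protein and regulatory lists had 0 members past the limma adjusted p. Of 41 complement and coagulation genes 35 differed downwards, with a median of −0.44, and the kininogen gene *kng1* had a difference of −0.85 (adjusted p = 0.0542). Carriers of metals and vitamins had a median of −0.42 over 30 genes, and the hemopexin gene *hpxa* a difference of −2.06 (adjusted p = 0.0644). Of 28 antiviral and interferon genes 27 differed downwards, with medians of −0.22 in batch 1 and −1.02 in batch 2. The batch 2 value rests on 1 fish, batch 2 OF 2, with a list mean of 5.75 against 4.01 to 4.69 on the other batch 2 arrays. Over all 23703 genes, 12068 differed downwards. The 31 circadian clock genes had a median of −0.52. Unlike these lists, the 15 estrogen-responsive genes had 8 members past the adjusted p, with a median of 4.60. The 8 are the 6 vitellogenin genes, *esr1* and *nots*. The differences of the vitellogenins follow from the split, and the median of the 9 other members was 0.10.

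Among other cell types, the mean signal of 17 exocrine pancreas markers was 2.40, 5.06, 6.54, 6.29 and 6.38 on vitellogenic arrays and 4.97, 6.57 and 5.88 on non-vitellogenic arrays, lowest on batch 1 OF 1. Median differences were −0.41 for macrophage, 0.14 for neutrophil, −0.12 for lymphocyte, −0.53 for endothelium, 0.01 for cholangiocyte, −0.57 for stellate cell and 0.03 for enterocyte markers, with 0 members past the adjusted p in each. On every array 6 of 13 lymphocyte and 4 of 8 enterocyte markers were under a signal of 3, so these 2 medians carry little information.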
